A study of Mus musculus with 8 samples.

Results

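The enzymes of heme synthesis were followed in the bone marrow (BM) of mice with acute myeloid leukemia (AML) that carried 2, 1 or 0 functional alleles of Gab2, which codes for a signaling adaptor of receptor tyrosine kinases. The set holds 8 genes chosen by function, Alas1, Alas2, Alad, Uros, Urod, Cpox, Ppox and Fech, and all 8 were among the 13305 genes of the deposited count table.

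All 8 mice were C57BL/6N animals of the genotype Mx1-Cre; Dnmt3a+/-; Flt3ITD/ITD. They differed in Gab2, with 3 Gab2+/+ mice (AML WT), 2 Gab2+/- mice (AML HET) and 3 Gab2-/- mice (AML KO), and RNA of whole BM was sequenced as 1 library per mouse. Every group thus carried the leukemia alleles, and the libraries hold no healthy marrow to compare with. As a model, Mx1-Cre is driven by an interferon-inducible promoter and had recombined Dnmt3a without induction, and the Gab2 knockout was not restricted to blood cells. The age of the sequenced mice and any removal of red cells are not given in the sources used here.

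Library totals ranged from 28009258 to 39266815 counts around a median of 32049876. Gab2 itself was measured at 93.9, 68.5 and 61.6 CPM (the count per 1000000 normalized counts) in the AML WT mice, 55.8 and 50.8 CPM in the AML HET mice and 35.0, 47.2 and 40.2 CPM in the AML KO mice, so that its order followed the labels without overlap between groups. Its log2 change from AML WT to AML KO was -0.87 (SE 0.18, edgeR's quasi-likelihood F test, Benjamini-Hochberg (BH) adjusted p over all genes = 0.0420). This call passed in 2 of 8 fits that left out a mouse, with estimates of -0.99 to -0.68 and an adjusted p of up to 0.159. The knockout libraries still held reads of the gene.

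Heme is an iron-containing ring that gives hemoglobin, cytochromes and peroxidases their color and their redox chemistry. Its synthesis opens in the mitochondrion, where 5-aminolevulinate synthase joins glycine to succinyl-CoA, continues through the cytosolic enzymes and returns to the mitochondrion for the closing steps. The opening step is carried by 2 isozymes from separate genes: Alas1 is made in nearly all cells and is repressed by heme, whereas Alas2, on the X chromosome, is made in erythroid cells and supplies the heme of hemoglobin. In marrow, the erythroid precursors are the largest consumers of heme.

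Alas2 and Alas1 lie on different chromosomes and have unlike promoters. The following windows are the 250 bases before the most upstream RefSeq start (GRCm38.p6), written 5′ to 3′ on the strand of the gene, and are shown for the pair of isozymes contrasted here and for Alad, the member with the next largest estimate. Capitals mark matches to the motifs searched: AGATAA and TGATAA, the usual forms of the GATA motif, CCNCNCCC, a form of the CACC box, CCAAT, and the palindromic NRF1 motif, all on both strands and with overlapping matches counted.
Alas2 (chrX:150547167-150547416, plus strand): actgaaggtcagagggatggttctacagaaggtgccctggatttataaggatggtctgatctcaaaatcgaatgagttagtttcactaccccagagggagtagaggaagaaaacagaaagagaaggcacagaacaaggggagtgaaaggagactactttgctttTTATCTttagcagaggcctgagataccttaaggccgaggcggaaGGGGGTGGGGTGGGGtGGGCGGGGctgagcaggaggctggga
Alas1 (chr9:106247955-106248204, minus strand): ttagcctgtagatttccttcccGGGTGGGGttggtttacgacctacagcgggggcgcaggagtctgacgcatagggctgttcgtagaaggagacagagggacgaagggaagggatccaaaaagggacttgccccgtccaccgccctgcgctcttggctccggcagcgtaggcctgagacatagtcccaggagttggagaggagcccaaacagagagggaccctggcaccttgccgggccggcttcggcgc
Alad (chr4:62520064-62520313, minus strand): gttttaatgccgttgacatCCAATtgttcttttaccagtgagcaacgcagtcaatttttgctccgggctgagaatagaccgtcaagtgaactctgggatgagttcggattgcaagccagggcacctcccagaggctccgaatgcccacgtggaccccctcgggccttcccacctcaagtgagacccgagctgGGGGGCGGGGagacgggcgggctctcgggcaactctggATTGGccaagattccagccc

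The window of Alas2 held AGATAA on the minus strand, 86 bases before the start, and 4 matches to CCNCNCCC, some of them overlapping, that began 26 to 42 bases before it. Among the 27026 promoter windows of this length, 10.2% held AGATAA and 45.6% held CCNCNCCC, so the CACC form is common by its letters alone. The window of Alas1 held neither GATA form and a single CCNCNCCC, 228 bases before the start. Its GC content was 62.4% with 16 CpG, against 51.2% with 4 CpG for Alas2 and medians of 52.0% and 6 over all windows. In Alad, CCNCNCCC was found 56 and 58 bases and CCAAT 20 and 231 bases before the start, where CCAAT was held by 34.5% of windows. Of the other enzymes, 4 had a window in the table: Cpox held TGATAA (8.12% of windows), Ppox held CCAAT at 4 places, Urod held it at 1, and Uros held CCNCNCCC and the NRF1 motif (3.87% of windows). These matches describe letters in the reference, and the libraries measured no binding. The starts are also not settled: the GENCODE start of Alas1 lies 700 bases upstream of the RefSeq start, and that of Alas2 42 bases upstream.

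Alas2 was the member that differed between AML KO and AML WT. It was measured at 5.53, 4.36 and 4.13 CPM in the AML WT mice, at 10.5 and 36.0 CPM in the AML HET mice and at 58.0, 28.9 and 24.8 CPM in the AML KO mice. Every mouse with a lost Gab2 allele was above every AML WT mouse, and of the AML HET mice 1 was below all AML KO mice and the other within their range. Alas2 rose by 2.99 on the log2 scale from AML WT to AML KO (SE 0.47, 95% interval 1.93 to 4.05, edgeR's quasi-likelihood test, BH-adjusted p = 0.0149), a 7.95-fold difference. The call was lost without AML WT mouse 1 (adjusted p = 0.0580) and without AML WT mouse 2 (adjusted p = 0.0860), while the estimate stayed between 2.52 and 3.21 with any 1 mouse left out. Erythroid marker RNA differed between the same groups, with sums of 333 to 470 CPM in AML WT and 1605 to 5622 CPM in AML KO mice. In bulk BM, fewer cells of a type and less RNA per cell cannot be told apart, and the part of erythroid cell number in the Alas2 result was not tested.

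The gene lies at chrX:150547375-150570638 (GENCODE M21, GRCm38, plus strand). Its coding transcripts share 372 exonic bases (18.3%) with genes on the opposite strand, 311 of them with Apex2, an endonuclease of DNA repair, and 61 with Mir3620. The strand setting of the counting is not given, so reads in these bases cannot be assigned to either gene with certainty. Apex2 was measured at 9.95 to 11.2 CPM in AML WT and 10.7 to 11.7 CPM in AML KO mice, with a log2 fold change of 0.05 (SE 0.15, edgeR's quasi-likelihood test, BH-adjusted p = 0.869).

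**Figure D1:**
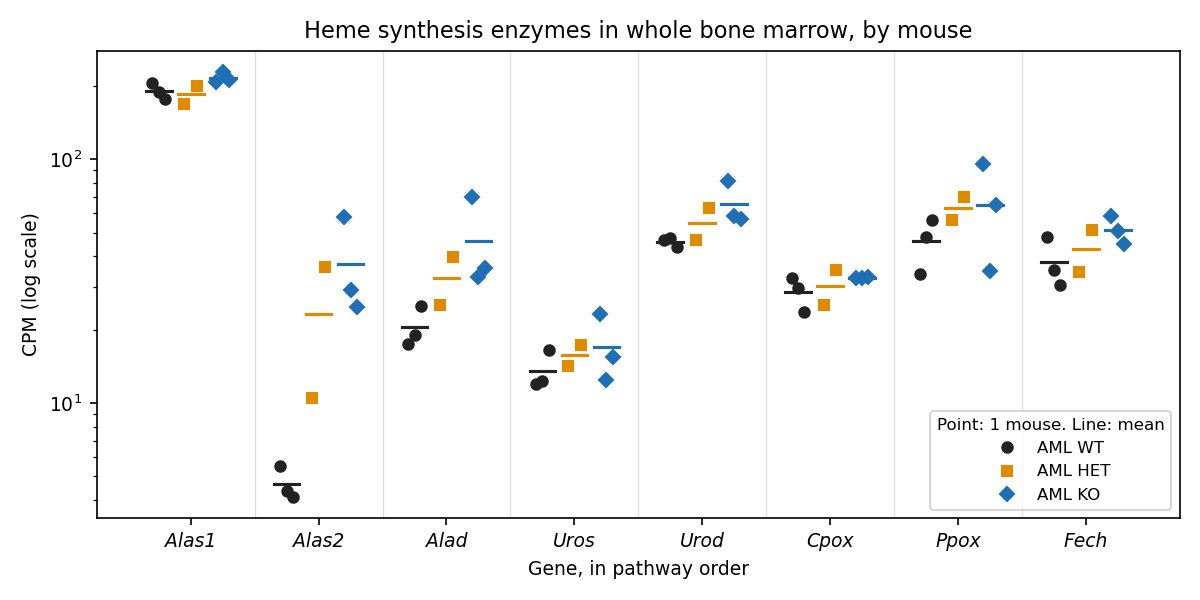
Level of each heme synthesis enzyme in every mouse, in CPM on a log axis, with genes in pathway order, AML WT in black, AML HET in orange and AML KO in blue, 1 point per mouse and a line at each group mean. Alas2 ran from 4.13 to 5.53 CPM in AML WT and from 24.8 to 58.0 CPM in AML KO, whereas Alas1 stayed between 168 and 228 CPM in all 8 mice.

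Alas1, the housekeeping isozyme, lay in a narrow range. It was measured at 204, 188 and 176 CPM in the AML WT mice, at 168 and 200 CPM in the AML HET mice and at 207, 228 and 212 CPM in the AML KO mice. All AML KO mice were above all AML WT mice, but by a small margin: the group means were 189 ± 14.4 CPM (SD, n = 3) and 216 ± 10.6 CPM (SD, n = 3). The log2 change from AML WT to AML KO was 0.19 (SE 0.12, edgeR's quasi-likelihood test, BH-adjusted p = 0.400), and its 95% interval of -0.08 to 0.45 corresponds to a fold of 0.947 to 1.37. Between AML HET and AML WT it was -0.04, with a 95% interval of -0.34 to 0.26. Alas1 lies at chr9:106233455-106248654 (GENCODE M21, GRCm38, minus strand) and shares 465 exonic bases (11.7%) with the antisense gene 4930500F10Rik, which has no row in the table used here.

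Set against Alas1 within a library, Alas2 came closer to its level. For every 100 Alas1 reads there were 2.71, 2.32 and 2.35 Alas2 reads in the AML WT mice, 6.24 and 18.0 in the AML HET mice and 28.0, 12.7 and 11.7 in the AML KO mice. The ratio was higher in all 3 AML KO mice than in all 3 AML WT mice, by 2.71 on the log2 scale or 6.54-fold (two-sided exact permutation test over mice, p = 0.1, below which 3 against 3 mice cannot go). Over the number of lost Gab2 alleles in all 8 mice, it increased by 1.36 on the log2 scale per allele (exact permutation test of the slope, two-sided, p = 0.0107, where 0.00357 is the smallest possible). Alas1 remained the more abundant isozyme in every mouse: per kilobase of exon, Alas2 reached 0.0450 to 0.0526 of the Alas1 level in AML WT and 0.228 to 0.544 in AML KO.

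**Figure D2:**
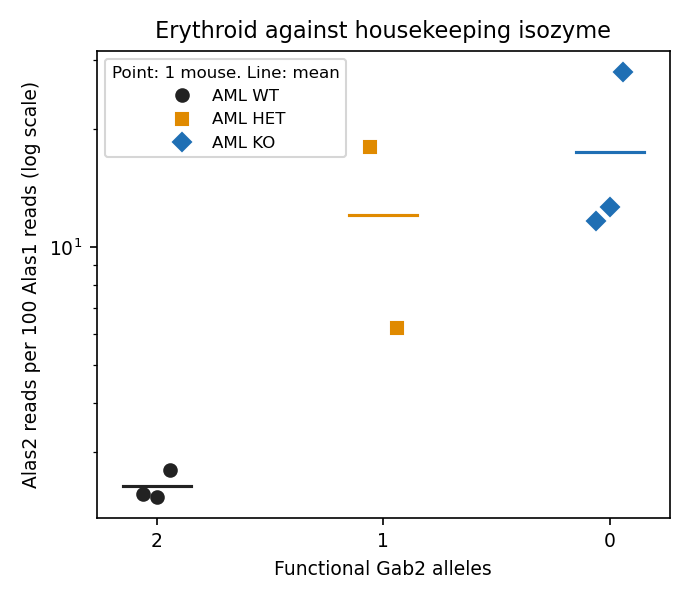
Alas2 reads per 100 Alas1 reads (log axis) against the number of functional Gab2 alleles, with 1 point per mouse and a line at each group mean. The 3 AML WT mice sit between 2.32 and 2.71, the AML HET mice at 6.24 and 18.0, and the AML KO mice between 11.7 and 28.0.

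The cytosolic steps follow. Alad, which joins pairs of 5-aminolevulinate molecules into porphobilinogen, was measured at 17.4, 19.1 and 25.1 CPM in the AML WT mice, at 25.3 and 39.8 CPM in the AML HET mice and at 70.1, 33.0 and 35.7 CPM in the AML KO mice. The groups did not overlap between AML KO and AML WT, and AML KO mouse 1 stood well above the others. Its log2 change from AML WT to AML KO was 1.17 (SE 0.30, 95% interval 0.49 to 1.85, edgeR's quasi-likelihood test, BH-adjusted p = 0.0986), which misses the threshold, and it was 0.74 without AML KO mouse 1. DESeq2 called Alad (adjusted p = 0.00480). The gene lies at chr4:62509169-62519918 (GENCODE M21, GRCm38).

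Urod, which trims the side chains of the ring, was measured at 46.6, 47.6 and 43.6 CPM in AML WT, 46.6 and 63.3 CPM in AML HET and 81.0, 58.2 and 56.6 CPM in AML KO mice. AML KO and AML WT mice did not overlap, with a log2 fold change of 0.51 (SE 0.17, edgeR's quasi-likelihood test, BH-adjusted p = 0.210) and of 0.32 without AML KO mouse 1.

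Uros, which closes the chain into the ring, was measured at 11.9, 12.3 and 16.4 CPM in AML WT, 14.1 and 17.3 CPM in AML HET and 23.3, 12.4 and 15.5 CPM in AML KO mice. These groups overlapped, and the log2 change from AML WT to AML KO of 0.33 (SE 0.24) was 0.04 without AML KO mouse 1 and 0.51 without AML KO mouse 2. Uros shares chromosome 7 with Gab2, 36.4 Mb away.

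Of the mitochondrial closing steps, Cpox, which oxidizes coproporphyrinogen, showed the smallest estimate. Its AML KO mice were nearly identical at 32.6, 32.4 and 32.7 CPM, at the upper end of the AML WT mice at 32.7, 29.5 and 23.7 CPM, and the AML HET mice were at 25.2 and 35.2 CPM. Its log2 change from AML WT to AML KO was 0.19, with a 95% interval of -0.19 to 0.56, and it was 0.07 without AML WT mouse 3 and 0.28 without AML WT mouse 1. Ppox, which makes protoporphyrin, was measured at 33.7, 48.1 and 56.1 CPM in AML WT, 56.1 and 70.0 CPM in AML HET and 95.2, 34.7 and 65.1 CPM in AML KO mice. AML KO mouse 2 was below 2 of the AML WT mice, and the log2 fold change of 0.50 (SE 0.32) was 0.12 without AML KO mouse 1, 0.31 without AML WT mouse 1 and 0.80 without AML KO mouse 2. Fech, the ferrochelatase that inserts iron, was measured at 48.1, 35.1 and 30.4 CPM in AML WT, 34.4 and 51.0 CPM in AML HET and 58.2, 50.7 and 44.9 CPM in AML KO mice. A single AML WT mouse overlapped the AML KO range, and its log2 fold change was 0.44 (SE 0.21, edgeR's quasi-likelihood test, BH-adjusted p = 0.305).

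Thus 1 of the 8 enzymes rose between AML KO and AML WT, where 1.77% of all genes were called higher and 2.09% were called in either direction. At an unadjusted p under 0.05, Alas2, Alad and Urod passed (3 of 8), against 17.7% of all genes. The estimates of all 8 were above 0, as were those of 48.1% of all genes, with a median log2 fold change of 0.47 against -0.02 over all genes. AML KO mice were above AML WT mice without overlap for Alas1, Alas2, Alad and Urod (4 of 8), against 12.3% of all genes. The summed level of the 7 enzymes other than Alas2 was 371 to 395 CPM in AML WT and 449 to 568 CPM in AML KO mice.

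**Figure D3:**
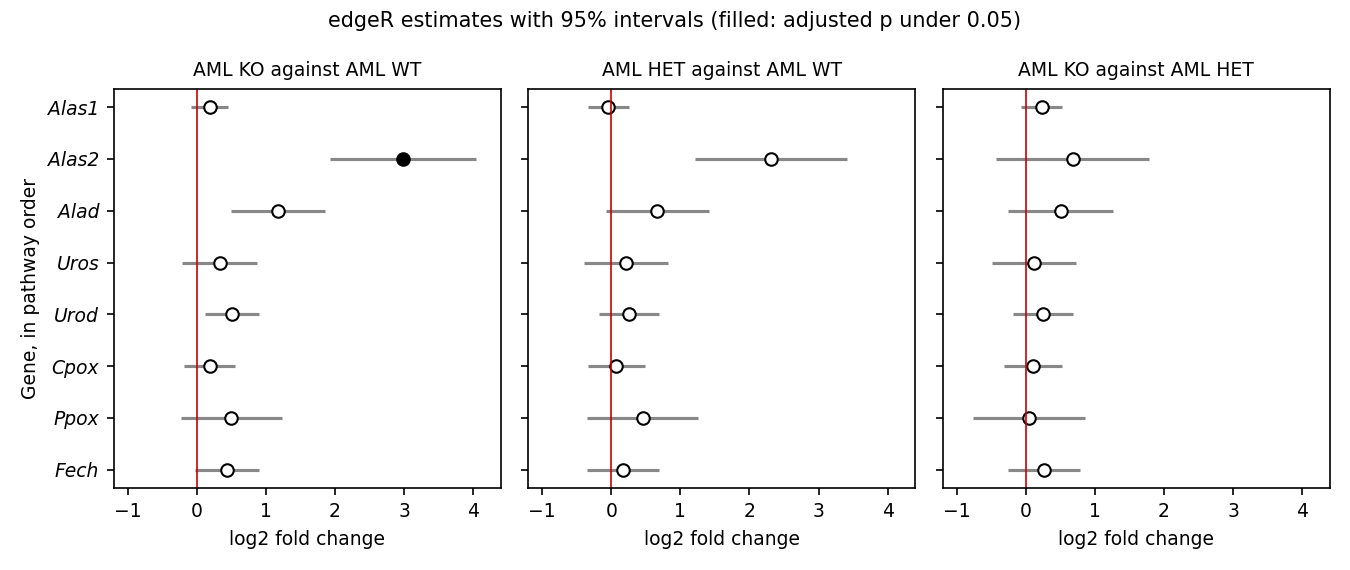
Log2 fold change of each enzyme with its 95% interval in the 3 comparisons of genotypes, from edgeR fitted to all 8 mice, with filled points for an adjusted p under 0.05 and a red line at 0. Only Alas2 between AML KO and AML WT is filled, at 2.99, and in the other panels every point is open.

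In AML HET mice no enzyme passed against AML WT with edgeR's quasi-likelihood test (0 of 8, against 0.0225% of all genes), and 0 with limma-voom. DESeq2 called 1 of 8, but its share of all genes in this comparison is not given here. At an unadjusted p under 0.05 with edgeR, only Alas2 passed (1 of 8, against 2.47% of all genes). The log2 fold change of Alas2 was 2.31 (SE 0.49, 95% interval 1.21 to 3.42, edgeR's quasi-likelihood test, BH-adjusted p = 0.505). It rested on unlike mice and was 1.16 without AML HET mouse 2 and 2.94 without AML HET mouse 1. AML HET mice were above AML WT mice without overlap for Alas2, Alad and Ppox (3 of 8, against 9.53% of all genes), and 7 of 8 estimates were above 0, against 48.5% of all genes.

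Between AML KO and AML HET mice, edgeR's quasi-likelihood test called 0 of 8 enzymes, as did DESeq2 and limma-voom, and 0 had an unadjusted p under 0.05. With edgeR, 0% of all genes were called and 5.86% had an unadjusted p under 0.05. For Alas2 the log2 fold change was 0.68 with a 95% interval of -0.42 to 1.78, a range that holds both no difference and one of more than 2-fold. It ran from 0.05 without AML HET mouse 1 to 1.83 without AML HET mouse 2. All 8 estimates were above 0, against 50.1% of all genes, and Alas1 was the member without overlap (1 of 8, against 13.2% of all genes). The mean CPM of the AML HET mice lay between those of the other groups for 7 of 8 enzymes, the exception being Alas1, and on mean log2 CPM for 6 of 8, with Ppox outside as well.

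Some mice stood out for several enzymes. AML KO mouse 1 had the highest level among AML KO mice for 6 of 8 enzymes, and AML HET mouse 2 was above AML HET mouse 1 for 8 of 8. These are also the mice with the most erythroid marker RNA, as given next. In AML WT there was no such mouse, with mouse 1 the highest of its group for 4 enzymes and the lowest for 3. The share of all genes with the same order of mice was not computed, so these counts do not set the enzymes apart from other genes.

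Compared per kilobase of coding-transcript exons, so that genes can be ranked, Alas1 was the most abundant enzyme in every group, at means of 47.9, 46.5 and 54.5 CPM per kb in AML WT, AML HET and AML KO. In AML WT it was followed by Urod, Ppox, Alad, Cpox, Uros, Fech and, at 2.30 CPM per kb, Alas2. Neighbors in this order whose mice did not overlap were Alas1 and Urod, Alad and Cpox, Cpox and Uros, and Fech and Alas2. In AML KO the order was Alas1, Urod, Alad, Ppox, Alas2, Cpox, Uros and Fech, with Alas2 at 18.3 CPM per kb. There only Alas2 and Cpox, and Cpox and Uros, were neighbors without overlap. Alas2 thus moved from place 8 to place 5 of the 8 enzymes, and was at place 5 in AML HET as well.

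Erythroid markers were measured in the same libraries. Of 18 markers listed, 17 were in the table and none was at 0 in any mouse. Between AML KO and AML WT, 15 of 17 rose and 0 fell (edgeR's quasi-likelihood test, against 1.77% of all genes called higher and 0.323% lower), with a median log2 fold change of 3.68. Hbb-bt, a globin, and Tfrc, the transferrin receptor, did not pass. The count depended on single libraries: 2 rose without AML WT mouse 1, 0 without AML WT mouse 2 and 8 without AML KO mouse 1 or 3. Calls over all genes, in either direction, also fell in these fits, from 278 with all mice. They were 167 without AML WT mouse 1, 40 without AML WT mouse 2, 137 without AML KO mouse 1 and 123 without AML KO mouse 3. Among those that rose with all mice were the red cell membrane genes Epb42 (3.92) and Rhag (3.91). Against AML WT, AML HET mice had 0 of 17 past the threshold (0.0225% of all genes were) and 16 at an unadjusted p under 0.05 (2.47% of all genes), both with edgeR. DESeq2 called 9. The summed level of the 17 markers was 333 to 470 CPM in AML WT, 736 to 2333 CPM in AML HET and 1605 to 5622 CPM in AML KO mice, and its highest values within the latter groups were those of AML HET mouse 2 and AML KO mouse 1.

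The enzymes were also set relative to the erythroid markers. Per 100 CPM of 12 erythroid markers, without the globins and Tfrc, Alas2 stood at 20.1, 10.6 and 9.88 CPM in the AML WT mice, at 10.5 and 10.5 CPM in the AML HET mice and at 9.89, 13.0 and 8.91 CPM in the AML KO mice. In 7 of 8 mice it thus lay between 8.91 and 13.0, with AML WT mouse 1 above. The means were 13.5 CPM in AML WT (SD 5.69, n = 3) and 10.6 CPM in AML KO mice (SD 2.14, n = 3). With 1 AML WT mouse left out, the difference of the means ran from -0.53 to 0.05 on the log2 scale, the last without AML WT mouse 1. The marker sum itself ran from 27.5 to 587 CPM. The other 7 enzymes were lower on this scale in every AML KO mouse than in every AML WT mouse. The divisor itself had a mean of 36.8 CPM in AML WT and 362 CPM in AML KO mice. A gene that rose by less than the divisor therefore comes out lower, so this order does not show a fall of these enzymes. The share of all genes with the same order was not computed. Alas1 stood at 420.0 to 742 CPM in AML WT and 35.3 to 102 CPM in AML KO mice, and Alad at 46.5 to 63.3 CPM and 11.9 to 14.8 CPM. Both sides of these ratios come from the same libraries, and they are given without a test.

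The gene left out matters for Alas2. Tfrc, which imports iron into dividing cells of many kinds, held 65.1% to 77.6% of the marker sum without globins in AML WT and 24.4% to 31.7% in AML KO mice. With Tfrc in the sum, Alas2 was 2.67 to 4.50 CPM per 100 CPM in AML WT and 6.08 to 9.79 in AML KO, so that the groups did not overlap. The other enzymes were again lower in every AML KO mouse, and this divisor too was higher there, at means of 132 CPM in AML WT and 493 CPM in AML KO. Leaving Tfrc out was chosen after its values were seen. On the log2 scale, the fold change of Alas2 itself (2.99) was below the median of the marker list (3.68).

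**Figure D4:**
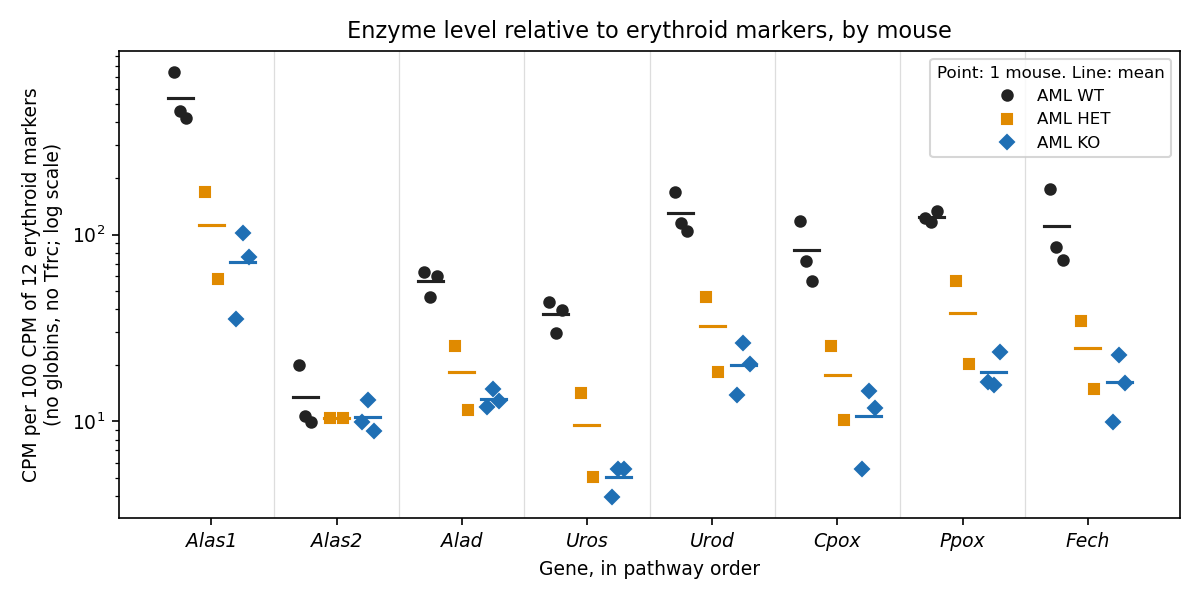
Level of each enzyme per 100 CPM of 12 erythroid markers without globins and Tfrc, on a log axis, with 1 point per mouse and a line at each group mean. Alas2 lies between 8.91 and 13.0 in 7 of 8 mice, with AML WT mouse 1 at 20.1. For the other enzymes all AML KO points are below all AML WT points, on a scale whose divisor was itself higher in AML KO mice.

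The genes whose pattern over the 8 mice was closest to that of Alas2 were sought among the 8990 genes whose own centered pattern had a root mean square of at least 0.2, by the root mean square difference of log2 CPM centered on the AML WT mean. They were Sptb (0.211), Sh3tc2 (0.253), Aqp1 (0.258), Ank1 (0.278) and Mylk3 (0.287), where the pattern of Alas2 itself had a root mean square of 2.12. Sptb and Ank1 code for proteins of the red cell membrane skeleton, and Aqp1 for a water channel of red cells, while no such role is given here for Sh3tc2 and Mylk3. Alas1 itself, at 0.148, lay under that limit, so genes as flat as Alas1 were not searched. The closest of those searched were Pecam1 (0.0831), Dedd2 (0.0914), Epb41 (0.0948), Acsf3 (0.0954) and Selenbp1 (0.101), differences that are not small beside that value. Epb41 also codes for a protein of the red cell membrane skeleton, so such genes were not found near Alas2 alone.

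Transcription factors of the erythroid lineage rose in part. Of 7 listed, 4 rose and 3 did not pass (edgeR's quasi-likelihood test, against 1.77% of all genes called higher), with Gata1 at a log2 fold change of 3.54, Klf1 at 3.48 and Tal1 at 1.23. Without AML WT mouse 2, 0 rose, and 2 rose without AML WT mouse 1 or 3 or AML KO mouse 1 or 3. Over all genes, 40 were called without AML WT mouse 2 and 123 to 238 in the other fits named, against 278 with all mice. Klf1 passed in 3 of 8 fits that left out a mouse. Gata1 binds the GATA motif and Klf1 the CACC box.

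No gene listed as serving the pathway passed. Of 20 genes of transport and iron-sulfur assembly, 18 were in the table, without Abcb6 and Fdx2, and 0 of 18 passed between AML KO and AML WT with edgeR's quasi-likelihood test, 5 had an unadjusted p under 0.05 (17.7% of all genes did), DESeq2 called 1 and limma-voom 0. Over all genes, DESeq2 called 730 between these groups, edgeR 278 and limma-voom 277, which applies to the lists that follow as well. The median log2 fold change of the transport and assembly genes was 0.23. Slc25a37, the mitochondrial iron importer mitoferrin, was measured at 52.0, 59.3 and 76.8 CPM in AML WT, 90.6 and 127 CPM in AML HET and 197, 75.1 and 130 CPM in AML KO mice, which overlapped, with a log2 fold change of 1.10 (SE 0.31, adjusted p = 0.134). Glrx5, a carrier of iron-sulfur clusters, stood at 1.07 (SE 0.38, adjusted p = 0.218). Without AML KO mouse 1 these were 0.71 for Slc25a37 and 0.54 for Glrx5, and without AML KO mouse 2 Slc25a37 passed at 1.38 (adjusted p = 0.0238).

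For heme export, breakdown and sensing, 15 of 17 genes were in the table, without Flvcr2 and Ppargc1a, and 0 passed with edgeR's quasi-likelihood test, 3 had an unadjusted p under 0.05 (17.7% of all genes did), DESeq2 called 2 and limma-voom 0, with a median log2 fold change of 0.03. Blvrb, a biliverdin reductase abundant in red cells, had AML WT mice at 13.0 to 16.3 CPM and AML KO mice at 25.3 to 44.9 CPM, with a log2 fold change of 1.14 (SE 0.28, adjusted p = 0.0781). Abcg2, a transporter that exports porphyrins, had AML WT mice at 11.8 to 14.8 CPM and AML KO mice at 17.4 to 25.4 CPM (log2 fold change 0.64, SE 0.18, adjusted p = 0.130). Of 5 heme-containing enzymes of myeloid cells, 1 rose with edgeR, against 1.77% of all genes called higher. DESeq2 called 3 (Mpo, Epx and Ptgs1) and limma-voom 1. The gene that rose with edgeR was Epx, the eosinophil peroxidase, which had few reads. It went from 0.0246 to 0.348 CPM in AML WT to 1.36 to 2.06 CPM in AML KO mice (edgeR's quasi-likelihood test, BH-adjusted p = 0.0247). This call was lost in 6 of 8 fits that left out a mouse (adjusted p up to 0.0683) and with AML WT and AML KO mice alone (adjusted p = 0.0509).

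Markers of other lineages moved with the same groups. Of 12 megakaryocyte and platelet markers 11 rose between AML KO and AML WT (edgeR's quasi-likelihood test, against 1.77% of all genes called higher). Without AML WT mouse 2, 7 rose, and without any other mouse 11 or 12. Over all genes, 40 were called without AML WT mouse 2, against 278 with all mice. The median log2 fold change of these markers was 2.97, with the largest in Pf4 (3.99), Gp1bb (3.84) and Ppbp (3.44). Their sum was 96.0 to 133 CPM in AML WT, 135 to 177 CPM in AML HET and 348 to 474 CPM in AML KO mice, and none was at 0. Of 12 mature neutrophil markers 7 rose, against the same 1.77% of all genes (10 without AML WT mouse 3, 0 without AML WT mouse 2, 1 to 3 without any 1 AML HET or AML KO mouse). Over all genes, the calls in these fits were 238, 40 and 123 to 370, in that order. The median of the neutrophil markers was 2.16, with sums of 1316 to 4715 CPM in AML WT, 5431 to 6099 CPM in AML HET and 10484 to 17156 CPM in AML KO mice. Of 11 markers of other marrow cells 0 passed with edgeR's quasi-likelihood test, 3 had an unadjusted p under 0.05 (17.7% of all genes did), and DESeq2 called 2, with Ptprc, the pan-leukocyte antigen, at -0.59 and Col1a1, a collagen of stroma, at -0.90, which was -0.55 without AML WT mouse 2. The part of these lineages in the levels of the broadly expressed enzymes was not tested.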

How the data were processed

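The authors sequenced 1 library of whole BM RNA per mouse (8 mice), and the deposited table holds raw counts per gene without normalization. The submitters' processing notes name Trimmomatic 0.36, STAR 2.5.2b and the build mm10. The counting tool, its strand setting and the annotation are not given in the sources used here. Of 13305 Ensembl identifiers, 13266 were matched to GENCODE M21, and no gene of the table had fewer than 106 counts summed over the mice. Groups were taken from the sample titles.

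Counts were analyzed in R 4.3.3 with edgeR 4.0.16 (TMM, robust quasi-likelihood fit of all 8 mice, genotype as the only term, Benjamini-Hochberg adjustment over all genes, threshold 0.05), and the filter on low counts removed no gene. CPM use TMM library sizes. Standard errors were derived from the F statistic. The edgeR p-values set a difference of groups against the spread between mice, estimated over all groups with information shared across genes. That there are only n = 2 AML HET mice limits every comparison with them. Enzyme counts ran from 135 to 8309 per mouse, so counting error is small beside the Alas2 difference. The Alas2 to Alas1 ratio used a pseudocount of 0.5 and exact permutation tests (scipy 1.17.1).

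Alternatives were DESeq2 1.42.0, limma-voom (limma 3.58.1), other normalizations and filters, the replicate number as a block, AML WT and AML KO mice alone, Gab2 allele number as a linear term and each mouse left out. The members and gene lists were chosen with earlier results of these data known. From each list, the 3 genes with the largest change among those that passed were eligible to be named, or the 2 with the smallest p where none passed. Some genes that meet this rule are not reported here. Apex2, Tfrc and Hbb-bt were named after their values were seen. Promoter windows are from RefSeq, where 7 of the 8 members were found. No protein sequences were used.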

Additional observations from a re-analysis of the deposited data

How the results depend on the processing

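Of the log2 fold changes of the 8 enzymes in the 3 comparisons, 383 of 400 recomputed values kept their direction and their side of the threshold. The number of enzymes called between AML KO and AML WT was 1, but 2 with DESeq2 (Alas2 and Alad), and 0 to 1 with a mouse left out, being 0 without AML WT mouse 1 and without AML WT mouse 2. Between AML HET and AML WT it was 0, and 1 with DESeq2 (Alas2). Deviations from the group mean were also correlated between mice of the same replicate number. The values were -0.509, -0.109 and -0.131 for AML WT with AML KO, 0.076 and 0.289 for AML WT with AML HET, and -0.138 and -0.04 for AML HET with AML KO. Deviations within groups this small offset one another, so these values cannot decide whether the numbers pair the mice. With the replicate number as a block, 0 enzymes were called, and the log2 fold change of Alas2 was 2.96 (edgeR, adjusted p = 0.102). Alas2 also failed without AML WT mouse 1 or 2, as given above. Under the remaining alternatives it passed, with an adjusted p from 3.215e-10 (DESeq2) to 0.0381 (edgeR without AML KO mouse 3). Over all genes, 278 were called between AML KO and AML WT, against 730 with DESeq2, 19 with the block and 40 to 370 with a mouse left out.

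Estimates that changed sign had not passed the threshold. Between AML KO and AML HET, that of Ppox (0.04) was -0.0597 with limma-voom, -0.0812 with the block and -0.33 to 0.34 with a mouse left out, Uros (0.12) ran from -0.17 to 0.29 and Cpox (0.11) from -0.11 to 0.37. Between AML HET and AML WT, Alas1 (-0.04) ran from -0.17 to 0.0787, Cpox (0.08) from -0.19 to 0.30 and Fech (0.17) from -0.14 to 0.43. The level of Alas2 relative to the erythroid markers, 1.10 on the log2 scale between the means of AML KO and AML WT, was -0.35 without Tfrc, and then 0.05, -0.50 and -0.53 without AML WT mouse 1, 2 and 3, alternatives chosen after seeing the data. The Alas2 to Alas1 ratio differed by 2.31 to 2.94 with a mouse left out. Except for Tfrc, whose weight in the sum is given above, the cause was not tested.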
